A study of Mus musculus with 6 samples.

Results

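The Twist, Snail, Zeb and Prrx transcription factors were read in whole mouse pancreas at E12.5, a mid-gestation embryonic stage. The group comprises Twist1, Twist2, Snai1, Snai2, Zeb1, Zeb2, Prrx1 and Prrx2. A probe set, the set of short probes that the array combines into 1 value, was taken as a member where the platform annotation gives it exactly 1 gene symbol and that symbol is one of these 8. This rule found 21 of the 45101 probe sets on the array: 6 for Prrx1, 5 for Zeb2, 4 for Zeb1, 2 for Snai2 and 1 each for Twist1, Twist2, Snai1 and Prrx2. The series compared 3 wild type control samples with 3 Hox6 null samples, all of strain Bl6 and all at E12.5, with 1 array per sample. Hox6 denotes the paralogous genes Hoxa6, Hoxb6 and Hoxc6. Replicates are labelled as biological. The alleles, the number of embryos pooled per sample, sex and litter are not stated. P-values therefore measure the spread between these samples.

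All 8 genes encode DNA-binding factors known from embryonic mesenchyme. Twist1 and Twist2 are basic helix-loop-helix proteins that bind E-boxes, short sites read as CANNTG, as dimers with the widely expressed E proteins. Snai1 and Snai2 are zinc finger repressors, and Zeb1 and Zeb2 carry zinc finger clusters at both ends with a homeodomain-like region between them. Snail and Zeb factors are known for repressing Cdh1 and other epithelial junction genes during epithelial-mesenchymal transition. Prrx1 and Prrx2 are paired-type homeodomain factors of limb, craniofacial and other mesenchyme. In the early pancreas, mesenchyme surrounds the branching epithelium and supports its growth, and Zeb2 and Snail genes are also active in neural crest and in blood or vascular cells.

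The RefSeq promoter table (GRCm38.p6) held entries for 6 of the 8 genes, all but Snai2 and Zeb1. The 250 bases before the start are shown for the members with a single entry whose null arrays all lay below the controls (Twist1, Twist2 and Snai1), and for Prrx1, whose probe sets did not. They are written 5′ to 3′ on the gene's strand: Twist1 chr12:33957421-33957670 on the plus strand, Twist2 chr1:91801211-91801460 plus, Snai1 chr2:167537945-167538194 plus and Prrx1 chr1:163313651-163313900 minus. Capitals mark matches to CANNTG, to the homeodomain core TAAT or to the CCAAT box, on either strand, where matches may overlap.
Twist1: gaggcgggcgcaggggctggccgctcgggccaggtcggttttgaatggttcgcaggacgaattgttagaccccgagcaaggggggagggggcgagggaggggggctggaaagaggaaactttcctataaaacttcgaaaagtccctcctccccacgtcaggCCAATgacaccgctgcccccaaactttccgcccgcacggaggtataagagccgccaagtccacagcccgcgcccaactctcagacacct
Twist2: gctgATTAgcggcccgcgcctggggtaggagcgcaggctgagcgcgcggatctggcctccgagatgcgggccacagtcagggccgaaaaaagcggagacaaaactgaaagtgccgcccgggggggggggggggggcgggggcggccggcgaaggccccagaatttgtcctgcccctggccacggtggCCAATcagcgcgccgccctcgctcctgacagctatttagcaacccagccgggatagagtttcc
Snai1: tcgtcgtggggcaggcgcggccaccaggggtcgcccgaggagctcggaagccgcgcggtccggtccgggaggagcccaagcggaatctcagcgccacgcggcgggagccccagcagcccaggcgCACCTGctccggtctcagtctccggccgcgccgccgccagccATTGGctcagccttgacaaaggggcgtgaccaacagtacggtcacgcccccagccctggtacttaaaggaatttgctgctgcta
Prrx1: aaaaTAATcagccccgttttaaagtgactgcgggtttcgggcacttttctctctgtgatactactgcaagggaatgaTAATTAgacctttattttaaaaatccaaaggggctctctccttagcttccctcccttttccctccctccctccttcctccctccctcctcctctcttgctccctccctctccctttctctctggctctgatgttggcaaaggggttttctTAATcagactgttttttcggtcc

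The windows of Twist1, Twist2 and Snai1 each held 1 CCAAT match, and that of Prrx1 held 0. Counting every entry of the 6 genes, 4 of 9 windows held a CCAAT match. Over all 32851 promoter windows of the same length 33.8% held one. Prrx1 held 4 TAAT matches and Twist2 held 1. At least 1 TAAT match was in 6 of the 9 windows and in 54.9% of all windows. CANNTG was found once, in Snai1, as CACCTG, and in 1 of the 9 windows of the 6 genes, against 66.2% of all windows. The 9 windows are not all separate, since 4 are Zeb2 entries. Of these, chr2:45113280-45113529 and chr2:45113254-45113503 overlap. The letters TGATNNAT, a form of the joint Pbx and Hox site, were in 0 of the 9 windows and in 7.68% of all windows. The motifs were chosen after the sequences had been read, and a match is a description of letters only.

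The arrays as a whole set the background for the member values. Array medians lay between 5.97 and 6.02 on the log2 scale. Control arrays correlated with each other at 0.994 to 0.995 across probe sets (Pearson's r over 45037 probe sets, which are not independent replicates), and null arrays at 0.980 to 0.987. Of the targeted genes, Hoxb6 differed by -0.42 and the 3 Hoxc6 probe sets by +0.13 to +0.73, with overlapping arrays for 3 of these 4 probe sets. Which exons the null alleles remove is not stated, so that these values do not check the genotype. By their mean level, epithelial junction genes were far higher in null 1 and null 2 than in any other array. In these genes null 3 lay close to the controls. Xist, which is transcribed in female cells, read 11.2 and 10.7 in control 1 and control 2, 6.87 in null 1 and 3.87 to 4.13 in the other arrays. Kdm5d, a gene of the Y chromosome, read 8.85, 9.14 and 8.78 in control 1, 2 and 3. Eif2s3y, another, read 7.8, 8.0 and 7.7 there. Xist alone therefore does not give the sex of these samples. Kdm5d, Eif2s3y and Uty, also on the Y chromosome, differed by +0.56, +0.38 and +0.51 between the groups. Of these, only Uty had all null arrays above all control arrays. Their part in the member values was not tested.

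None of the 21 member probe sets passed the test over all probe sets (limma, adjusted p under 0.05), where 0.00222% of probe sets were called, a single one of 45037. At an unadjusted p under 0.05, limma gave 6 member probe sets lower in the null arrays and 1 higher, where 6.79% of all probe sets were lower and 8.17% higher at that limit. All null arrays lay below all control arrays for 7 of the 21 (9.89% of all probe sets) and above them for 1 (12.1% of all probe sets). The 7 belonged to 5 genes: Twist1, Twist2, Snai1, Zeb1 and Zeb2. A negative difference, with Hox6 null lower, was found for 16 of the 21, against 42.7% of all probe sets. Counted by gene, each by its probe set with the highest mean, 8 of 8 members were negative, against 44.0% of all genes, with a median of -0.32. The median difference was -0.22 over the member probe sets and 0.042 over all probe sets. Members that share a gene are not independent of each other, and 16 of the 21 had a mean level at or above the median probe set, whose log2 value was 5.98. Of the 5 dimmer member probe sets 3 were negative. In whole-organ RNA, fewer cells of a type and less RNA per cell cannot be told apart.

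**Figure D1:**
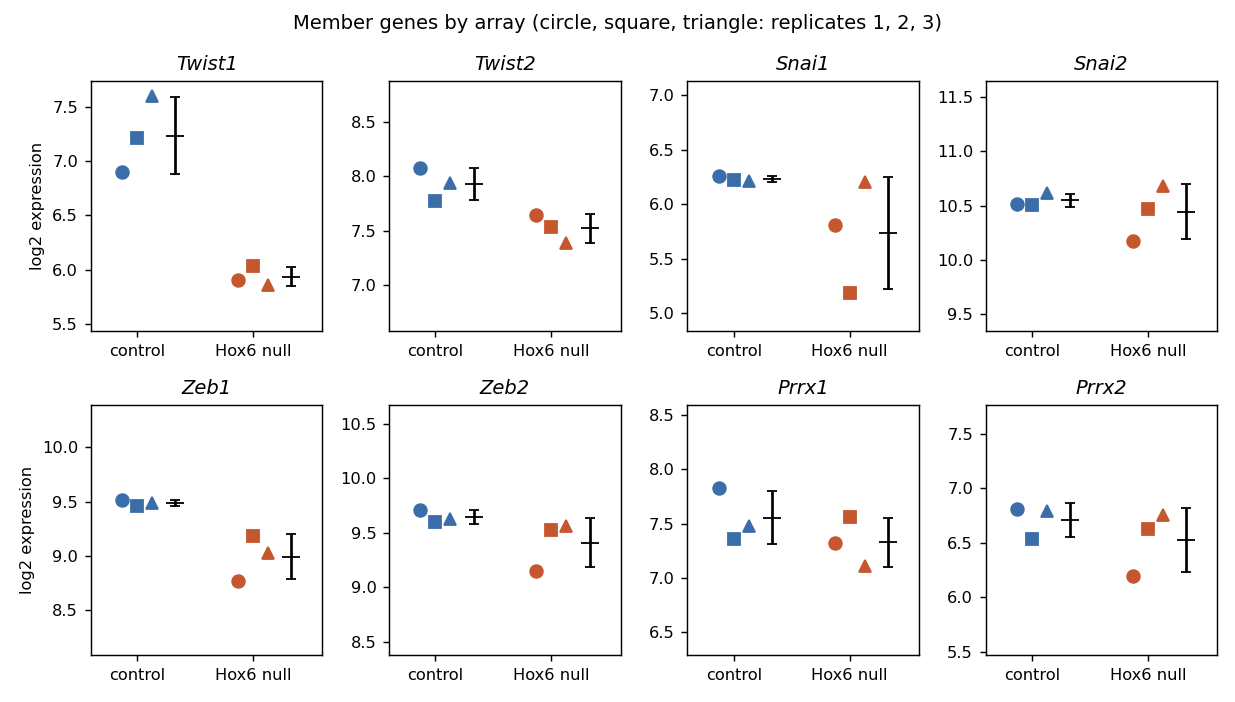
Log2 expression of the 8 member genes, each by its probe set with the highest mean, in the 3 control (blue) and 3 Hox6 null (orange) arrays, with mean and SD as bars; each panel spans 2.3 log2 units. The 3 null arrays of Twist1 sit between 5.86 and 6.04, and its controls between 6.90 and 7.60.

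Twist1 showed the widest separation of the members. Its single probe set (1418733_at) read 6.90, 7.21 and 7.60 in control 1, 2 and 3, and 5.91, 6.04 and 5.86 in null 1, 2 and 3. Every null array lay below every control array, and null 3, which lay near the controls in its epithelial junction genes, held the lowest Twist1 value. The control mean was 7.23 ± 0.35 (SD, n = 3) and the null mean 5.94 ± 0.09 (0.0901, SD, n = 3), so that the controls varied more among themselves than the null arrays did. The difference was -1.30 ± 0.18 (SE, 95% interval -1.72 to -0.88), a level 2.46-fold lower in the null arrays. It did not pass the threshold, with an adjusted p of 0.116 over all probe sets and 0.0711 over 18193 genes (limma, Benjamini-Hochberg). By p it ranked 36 among the genes, of which 13 passed.

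Whether Twist1 passed depended on the variance model and on the arrays included. For Twist1 1418733_at, letting the variance prior follow intensity and resist outliers gave an adjusted p of 0.0424 over probe sets, and without null 3 it was 0.0295 (limma). Over these and the other alternatives it ranged from 0.0295 to 0.535, and the difference from -1.57 to -1.12, negative in 15 of 15. With the mean level of the epithelial junction genes as a covariate the difference was -1.35, with an adjusted p of 0.203 over probe sets (limma). That covariate was 7.72 to 7.80 in the controls and 8.83, 8.63 and 7.80 in null 1, 2 and 3. Only null 3 shared the control range, so that this fit rests largely on that array. With Xist as a covariate the Twist1 difference was -1.57, with an adjusted p of 0.386 (limma).

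Twist2, the close relative of Twist1 that is also known from dermal and skeletal mesenchyme, differed less. Its probe set read 8.08, 7.78 and 7.94 in the controls and 7.65, 7.54 and 7.38 in the null arrays. The groups did not overlap, but the gap between the lowest control and the highest null array was narrow. The difference was -0.41 ± 0.13 (SE, 95% interval -0.70 to -0.12, adjusted p = 0.251, limma over probe sets). Within each array, Twist1 minus Twist2 was -1.18, -0.57 and -0.35 in the controls and -1.74, -1.50 and -1.52 in the null arrays. This gap differed by -0.89 between the groups with no overlap. Its exact permutation p was 0.1 (two-sided), the smallest that 3 against 3 arrays allow, and 0.2 adjusted over the 4 gaps compared, one for each pair of relatives.

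**Figure D2:**
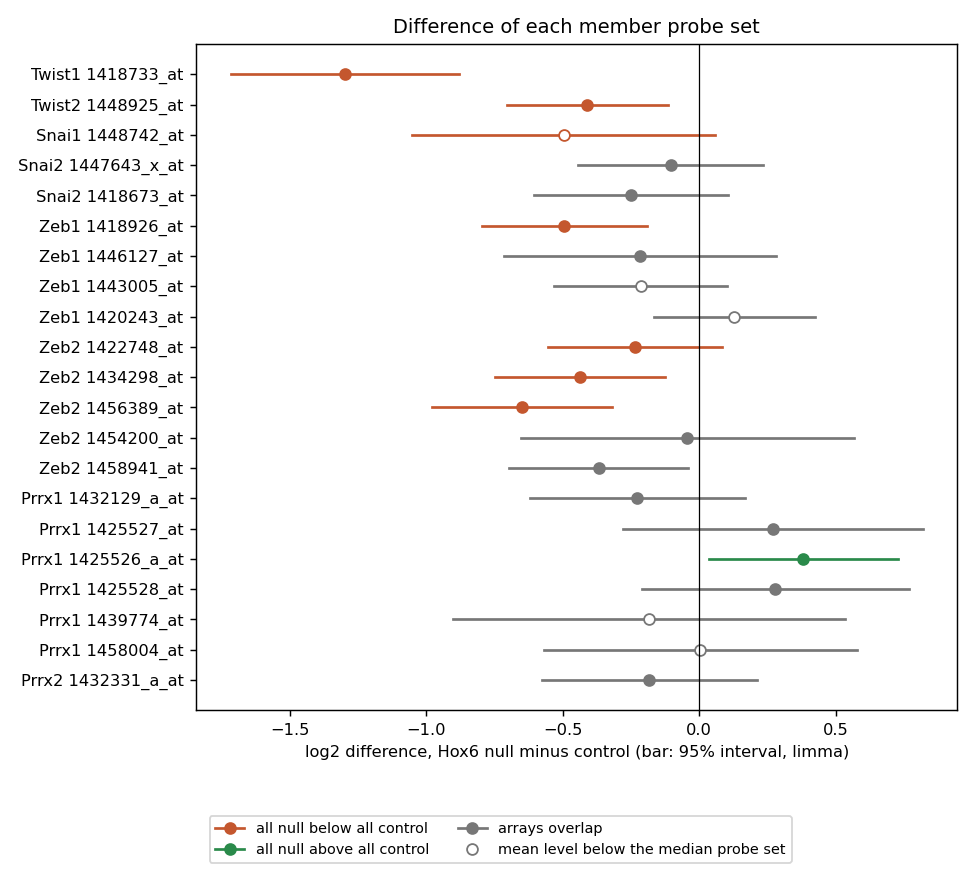
Log2 difference (Hox6 null minus control) of the 21 member probe sets with 95% intervals from limma; orange marks probe sets whose null arrays all lay below all control arrays, green the single one with all above, and open points a mean level below the median probe set. Twist1 lies apart at -1.30, and the Prrx1 probe sets fall on both sides of 0.

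Zeb1 and Zeb2 were lower in the null arrays by most of their probe sets. The brightest Zeb1 probe set (1418926_at) read 9.51, 9.46 and 9.49 in the controls and 8.77, 9.18 and 9.03 in the null arrays. Its controls were nearly identical (SD 0.025, n = 3), and the null arrays lay below them while differing among themselves (SD 0.21, n = 3). The difference was -0.49 ± 0.13 (SE, 95% interval -0.80 to -0.19, adjusted p = 0.218, limma over probe sets). Of the other 3 Zeb1 probe sets, 1446127_at and 1443005_at gave -0.22 and -0.21 with overlapping arrays. The fourth, 1420243_at, gave +0.13 at levels of only 2.06 to 2.43.

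All 5 Zeb2 probe sets had a negative difference, from -0.65 to -0.043. The most negative (1456389_at) read 8.70, 8.40 and 8.28 in the controls and 7.67, 7.85 and 7.91 in the null arrays. Null 1 was the lowest array, and the groups did not overlap. This probe set gave -0.65 ± 0.14 (SE, 95% interval -0.98 to -0.32, adjusted p = 0.198, limma over probe sets). For 1434298_at the controls read 8.50, 8.28 and 8.45 and the null arrays 7.78, 8.0 and 8.15, a difference of -0.44 ± 0.13 without overlap. For the brightest one, 1422748_at, they read 9.71, 9.60 and 9.62 against 9.15, 9.52 and 9.56. Here null 2 and null 3 came close to the lowest control, and the difference was -0.23 ± 0.14. The remaining pair, 1458941_at at -0.37 and 1454200_at at -0.043, had overlapping arrays.

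Zeb1 minus Zeb2, each by its brightest probe set, was -0.20, -0.13 and -0.14 in the controls and -0.38, -0.34 and -0.53 in the null arrays. The gap differed by -0.26 without overlap (exact permutation p = 0.1, two-sided, 0.2 adjusted over the 4 gaps). The direction of this gap depends on the Zeb2 probe set. Zeb1 differed by -0.49 by its brightest probe set. Zeb2 differed by more, -0.65, by 1456389_at and by less, -0.44 to -0.043, by its other probe sets.

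The Snail genes differed widely among the null arrays. Snai1 read 6.26, 6.22 and 6.21 in the controls and 5.81, 5.18 and 6.21 in the null arrays. Null 2 was far below all other arrays and null 1 below the controls, while null 3 equalled the lowest control to the second decimal. The difference was -0.50 ± 0.24 (SE, 95% interval -1.05 to 0.059, adjusted p = 0.372, limma over probe sets). Without null 2 it was -0.22 and without null 3 it was -0.73. Snai1 had a mean level of 5.98, just under the median probe set.

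Snai2, known as Slug, overlapped between the groups in both probe sets. Probe set 1447643_x_at read 10.52, 10.51 and 10.62 in the controls and 10.18, 10.47 and 10.69 in the null arrays, a difference of -0.10 ± 0.14 (SE). The suffix x marks probes that can also bind other transcripts. Probe set 1418673_at read 8.47, 8.04 and 8.33 against 7.82, 8.11 and 8.16, a difference of -0.25 ± 0.15. In both, null 1 was the lowest array. Their 95% intervals, -0.44 to 0.23 and -0.60 to 0.10, leave room for a decrease of the size seen for Twist2. Snai1 minus Snai2 differed by -0.39 between the groups with overlapping arrays (exact permutation p = 0.2, two-sided, 0.267 adjusted over the 4 gaps).

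The Prrx1 probe sets disagreed in direction. Probe set 1425526_a_at read 7.13, 6.83 and 7.05 in the controls and 7.32, 7.63 and 7.20 in the null arrays, and was the 1 member probe set with all null arrays above all control arrays. It differed by +0.38 ± 0.15 (SE, 95% interval 0.035 to 0.73, adjusted p = 0.307, limma over probe sets). Probe sets 1425527_at and 1425528_at gave +0.27 and +0.28 with overlapping arrays. The brightest one, 1432129_a_at, read 7.83, 7.36 and 7.48 against 7.33, 7.56 and 7.11, a difference of -0.23 ± 0.17. The dim probe sets 1439774_at and 1458004_at gave -0.18 and +0.0042, with null 3 the lowest of all arrays in each.

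Within each array, 1425526_a_at minus 1432129_a_at was -0.70, -0.53 and -0.42 in the controls and -0.0037, 0.074 and 0.094 in the null arrays. The gap differed by 0.61 between groups without overlap, and its SD was 0.14 in the controls and 0.052 in the null arrays (n = 3 each). The pair was chosen for these values, so that no test is given. The transcript that each probe set reads was not determined.

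**Figure D3:**
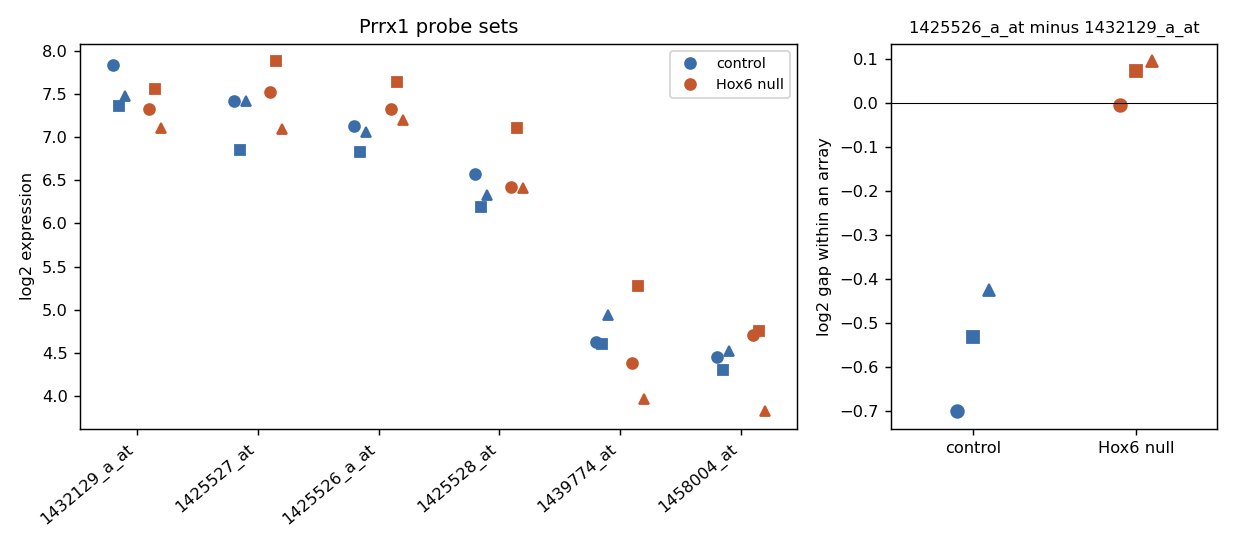
Left, log2 expression of the 6 Prrx1 probe sets in control (blue) and Hox6 null (orange) arrays (circle, square and triangle for replicates 1, 2 and 3); right, the gap between 1425526_a_at and 1432129_a_at within each array. The gap lies between -0.70 and -0.42 in controls and between -0.0037 and 0.094 in null arrays, whereas single probe sets mostly overlap.

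Prrx2 showed no separation of the groups. It read 6.81, 6.53 and 6.79 in the controls and 6.19, 6.63 and 6.76 in the null arrays. Null 1 was low and the other null arrays lay within the control range. The difference was -0.18 ± 0.17 (SE, 95% interval -0.58 to 0.21, adjusted p = 0.622, limma over probe sets). Prrx1 minus Prrx2, by the brightest Prrx1 probe set, differed by -0.045 (exact permutation p = 0.9, two-sided, 0.9 adjusted over the 4 gaps).

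Counted by array, the members did not move through 1 null array alone. Null 1 lay below the lowest control in 16 of the 21 member probe sets, null 2 in 10 and null 3 in 12, where 30.0%, 31.3% and 28.7% of all probe sets did so. The median deviation of the members from the control mean was -0.37 in null 1, -0.12 in null 2 and -0.14 in null 3, against 0.054, 0.029 and 0.015 over all probe sets. Single genes nevertheless took different paths. Relative to their control means, Twist1 stood at -1.32, -1.20 and -1.37 in null 1, 2 and 3, Twist2 at -0.28, -0.40 and -0.55, and Zeb1 (1418926_at) at -0.72, -0.31 and -0.46. Snai1 stood at -0.42, -1.05 and -0.025 in the same order.

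Marker lists of several other cell types differed between the groups. Over all genes (limma), 2 of 10 endothelial, 2 of 10 macrophage and 1 of 8 erythroid markers passed, where 0.0715% of all genes did. In the other lists given here 0 passed. For the directions below, 44.0% of all genes had a negative difference. The part of these markers in the member values was not tested. Of 10 macrophage and leukocyte markers 10 were lower in the null arrays, with a median of -0.81 and a mean level of 8.22 to 8.28 in control and 7.23 to 7.69 in null arrays. All 10 endothelial markers were lower too (median -0.58), with mean levels of 8.48 to 8.62 in control and 7.80 to 8.15 in null arrays. Of 8 erythroid markers 8 were lower (median -0.52), with mean levels of 8.97 to 9.01 against 8.06 to 8.68. The erythroid medians by array were -0.30, -1.09 and -0.12 in null 1, 2 and 3, the same order of arrays as for Snai1. Neural crest and glial markers did not share a direction, with 4 of 6 higher (median 0.17). Mesothelial markers were lower in 6 of 7 (median -0.63) and smooth muscle and pericyte markers in 8 of 9 (median -0.31). Pancreatic progenitor markers, which check the tissue, were read at mean levels of 7.76 to 9.19 in all arrays and were higher in the null arrays in 9 of 9. Their array medians were 1.21, 0.92 and 0.21 in null 1, 2 and 3, against -0.17 to 0.18 in the controls.

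**Figure D4:**
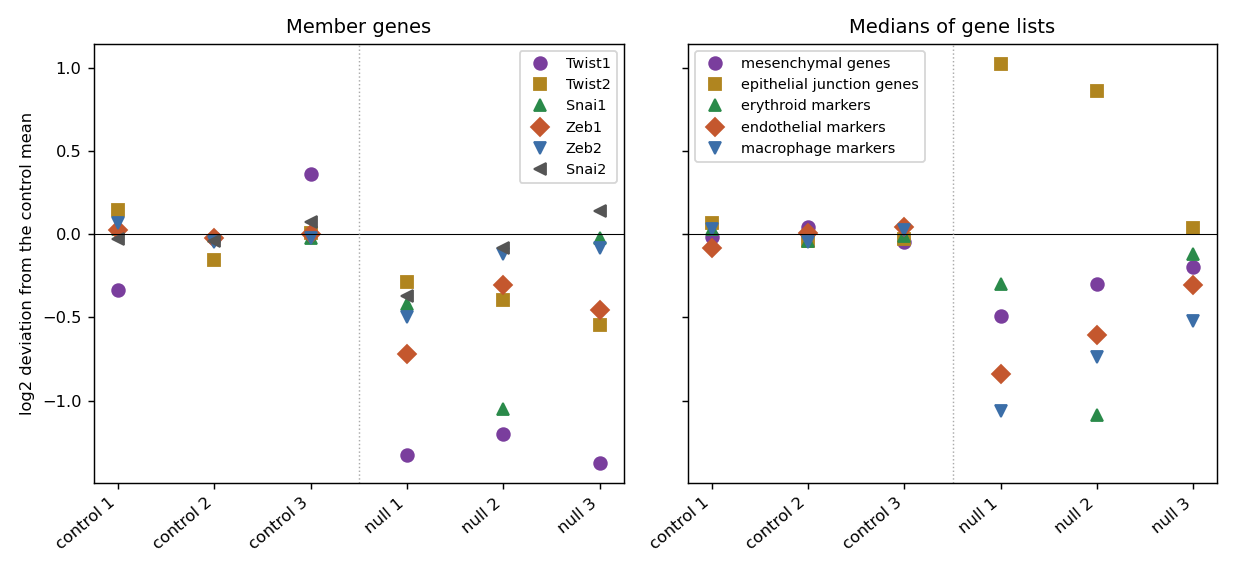
Deviation from the control mean (log2) in each array, for 6 member genes by their brightest probe set (left) and as the median over 5 gene lists (right). Twist1 is low in all 3 null arrays, Snai1 is lowest in null 2 as are the erythroid markers, and epithelial junction genes are high in null 1 and null 2 only (0.039 in null 3).

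Structural genes of mesenchyme were compared next, since the members are known as mesenchymal regulators. Of 20 listed genes, which include no member, 19 were measured, and 19 of 19 were lower in the null arrays. The median was -0.33, against 0.033 over all genes, and all null arrays lay below all control arrays for 12 (11.7% of all genes). None passed over all genes (limma), where 0.0715% did, and 8 had an unadjusted p under 0.05, where 8.24% of all genes were lower at that limit. Dcn, a small proteoglycan, differed by -0.88 ± 0.10 (SE) and Lum, another, by -2.12 ± 0.31, and Postn, a secreted matrix protein, by -0.65 ± 0.13. By array the list median was -0.49, -0.30 and -0.20 in null 1, 2 and 3. Markers of early pancreatic mesenchyme formed a separate list, which includes the targeted gene Hoxb6 (-0.42). Of these markers 6 of 8 were lower, Hoxb6 among them (median -0.47), with array medians of -0.78, -0.52 and 0.26. Those of the spleen primordium, of which 3 of 4 are also in that list, stood at -0.82, -0.61 and 0.31. In both lists null 3 lay above the control mean, unlike for the structural genes. With the mean level of the structural genes as a covariate the Twist1 difference was -1.33, with an adjusted p of 0.535 over probe sets (limma). That covariate does not overlap between the groups (9.78 to 9.97 in control and 9.20 to 9.51 in null arrays), so that it can hardly be told apart from genotype.

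Epithelial junction genes, the class that Snail and Zeb factors are known to repress, lay higher. Of 22 measured, 21 were positive with a median of 0.67, and all null arrays lay above all control arrays for 7, where 12.2% of all genes did so. None passed over all genes, and 12 had an unadjusted p under 0.05 (limma), where 8.73% of all genes were higher at that limit. The tight junction genes Cldn4 and Marveld3 differed by +1.17 ± 0.33 (SE) and +0.82 ± 0.22, and the desmosomal plakin Dsp by +0.77 ± 0.22. The list medians were 1.02, 0.86 and 0.039 in null 1, 2 and 3. In null 3, the array in which these junction genes stood at the control level, the members differed. By brightest probe set, Twist1 stood at -1.37 from its control mean there, Twist2 at -0.55, Zeb1 at -0.46 and Prrx1 at -0.45. Zeb2 stood at -0.085, Snai1 at -0.025, Prrx2 at 0.049 and Snai2 at 0.14. A link between members and junction genes was not tested. Null 3 was not like the controls in every marker. It held the highest value of the gut marker Sox2. The neuron marker Tubb3 read 8.17 there against 5.81 to 6.62 in the other arrays, and the glial marker Fabp7 9.52 against 6.69 to 8.43. These genes were picked for their values. Median deviations of the neuron list were 0.45, 0.24 and 0.41 in null 1, 2 and 3. Those of the neighbouring gut list were 0.35, 0.26 and -0.48. The share of other tissue was not tested. Epithelial factors known to oppose Zeb and Snail activity were in part higher, with 7 of 11 positive and a median of 0.25. Of these Grhl2 was at +0.85 ± 0.26, Ovol2 at +0.60 ± 0.21 and Elf3 at +0.48 ± 0.23. The 4 lower ones included Klf5 at -0.51 ± 0.27. The list medians were 0.50, 0.32 and -0.0029 in null 1, 2 and 3. In this list 0 of 11 passed over all genes while 2 had an unadjusted p under 0.05 (limma).

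Partners of the members had medians near 0. Among 7 genes for E proteins, which dimerize with Twist, and Id proteins, which sequester E proteins, 4 were negative and the median was -0.027. Id4 differed by +0.66 ± 0.14 (SE), Id2 by +0.23 and Tcf4 by -0.21, of which Id4 turned to -0.033 with its probe set of largest variance. Among 10 genes for corepressors recruited by Snail and Zeb factors, 5 were negative and the median was -0.021. Rcor1 gave -0.33, Sin3a +0.27 and Ajuba -0.18, and the first and second took the opposite sign (+0.011 and -0.12) with their probe sets of largest variance. In both lists 0 genes passed over all genes (limma). At an unadjusted p under 0.05 there was 1 higher and 0 lower of 7 partners, and 1 higher and 1 lower of 10 corepressors, where 8.73% of all genes were higher and 8.24% lower, so that neither count stands far from the background.

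Upstream signals and other transcription factors closed the comparison. Of 21 genes of the Tgf-beta, Bmp, Fgf, Pdgf and Hgf pathways, which induce several members in other settings, 15 were negative with a median of -0.15. The receptor Tgfbr2 differed by -0.70 ± 0.11 (SE), the ligand Tgfb1 by -0.998 ± 0.18 and Bmp4 by -0.79 ± 0.20. Of 15 other measured factors, among them relatives such as Scrt genes and further homeodomain genes such as Msx, 10 were positive with a median of 0.26. Msx1, a mesenchymal homeodomain factor, differed by -1.18 ± 0.35, while Tcf23 (+0.37) and Scrt1 (+0.74) read 2.91 to 3.47 and 4.02 to 5.52. None of these genes passed over all genes (limma). At an unadjusted p under 0.05, 4 of 21 pathway genes were lower and 0 higher. Of the 15 other factors 1 was lower and 4 higher, where 8.24% of all genes were lower and 8.73% higher.

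The genes with the most similar profiles were sought for Twist1, Snai1 and Zeb1, the 3 members with the widest range over the arrays when each gene is read by its brightest probe set. Other probe sets of Prrx1 and Zeb2 ranged more widely than the Zeb1 probe set used. Likeness was the root mean square difference of centred log2 levels over 6 arrays, among 9092 genes at or above the median gene level. Nearest to Twist1 were the lymphangiogenic ligand gene Vegfc (0.207), the angiopoietin receptor gene Tek (0.234), Ccn4 (0.266), which encodes a secreted matricellular protein, and the interferon-induced membrane protein gene Ifitm1 (0.269). Vegfc and Tek passed over all genes (adjusted p = 0.0417 each, limma), but 13 of 17 alternatives ended the call of gene Vegfc and 12 of 17 that of gene Tek. Their adjusted p ranged from 0.0095 to 0.463 and from 0.0089 to 0.518 over these alternatives, and without null 1, for example, it was 0.0849 and 0.0900 (limma). Nearest to Snai1 were Ppp1r18 (0.0462), the heme synthesis genes Fech (0.0572) and Alas2 (0.0864), and the carbonic anhydrase gene Car2 (0.0893), which is abundant in red cells. Alas2 read 9.16, 8.27 and 9.47 in null 1, 2 and 3 against 9.36 to 9.52 in controls, the order of arrays seen for Snai1. Nearest to Zeb1 were Vamp7 (0.0445), the ion channel gene Piezo2 (0.0508), Lrrc17 (0.0557) and the metalloprotease gene Adam19 (0.0613). With 6 arrays and 9092 genes searched, some close profiles arise from the size of the search.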

How the data were processed

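The authors deposited log2 expression values per probe set for 6 arrays. The submitters' processing notes name RMA, affy and limma without versions. Per the labels, RNA came from frozen pancreata and was amplified with the NuGEN WT-Pico Ovation kit. Names come from the platform annotation. Of 45101 probe sets, 34945 had 1 symbol, 932 several and 9160 none, and 64 were array controls. No array pair shared more than 166 identical values. No genome build is given in the sources used here, so only the RefSeq promoter windows carry coordinates.

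Hox6 null was compared with control in limma 3.58.1 (R 4.3.3), genotype as the single term, two-sided, with Benjamini-Hochberg adjustment at 0.05, over 45037 probe sets and over 18193 genes, each by its probe set with the highest mean. The number of arrays limits the precision. Both comparisons were tested on simulated data. Gaps within arrays, added after the values were seen, were tested by exact permutation. The members and lists were chosen with earlier results of these data known. Named were all member probe sets, the 3 genes of smallest p per pathway list and the 4 nearest profiles of 3 members. Alternatives changed filter, normalization, variance prior, weights, block, covariates, probe set choice and arrays included.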

Additional observations from a re-analysis of the deposited data

How the results depend on the processing

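Of 45037 probe sets 1 was called, and 0 with repeated quantile normalization, the mesenchymal covariate or the Xist covariate (5966, 3908 and 4844 at an unadjusted p under 0.05, limma). With the filter at the median level it was 16, with a trend and robust prior 63, with array weights 41, with the junction covariate 10, and from 0 to 1902 without single arrays. Of genes 13 were called, 2 after repeated quantile normalization, 1 after median centring, 74 with the trend and robust prior, 155 with array weights, 1 with the probe set of largest variance, from 0 to 1536 without single arrays, and 0 with either the mesenchymal or the Xist covariate (1622 and 2239 at an unadjusted p under 0.05, limma). The highest counts were those without null 3. Of members, 1 was called, Twist1, with the trend and robust prior and without null 3, both over probe sets and over genes, and 0 in the other alternatives. The filter at the median gene level of 6.81 left 5 member genes. Twist1, with a mean of 6.58, was not among them and could not be called there. The Xist covariate was chosen after seeing the data.

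The labels number replicates 1 to 3 in both groups. Deviations of same-numbered arrays correlated at 0.138, 0.0049 (0.00487) and 0.062 (0.0619). For 2 of the 3 numbers the same-numbered array was the best match in both directions. Correlations this low do not establish a pairing, and with 3 arrays per group they cannot exclude one. With the replicate block 1 probe set and 0 genes were called (3030 genes at an unadjusted p under 0.05, limma), and 0 members.

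Of the 21 member probe sets 9 kept their sign in every alternative. With repeated quantile normalization and median centring Prrx1 1458004_at turned to -0.072 and -0.0074. With array weights Zeb2 1454200_at became 0.17 and Prrx1 1439774_at 0.033. With the junction covariate Snai2 1447643_x_at became 0.17, Zeb1 1446127_at 0.14, Prrx1 1425527_at -0.13, Prrx1 1458004_at -0.61, Prrx2 0.090, Tcf4 0.050 and gene Elf3 -0.051. With the mesenchymal covariate Snai1 became 0.36, Snai2 1447643_x_at 0.41, Zeb1 1446127_at 0.92, Zeb2 1422748_at 0.061, Prrx2 0.15, and the Prrx1 probe sets 1425527_at, 1425526_a_at, 1425528_at and 1458004_at -0.97, -0.18, -0.34 and -1.38. Under it Tcf4 became 0.26, Grhl2 -0.54, Ovol2 -0.60, Elf3 -0.59, Cldn4 -0.66, Dsp -0.040, Msx1 0.52, Ppp1r18 0.26, Fech 0.24, Alas2 0.33 and Car2 0.14. With Xist, Zeb1 1420243_at became -0.0064 and Zeb2 1454200_at 0.0072. Without single arrays Zeb2 1454200_at ranged from -0.33 to 0.15, Prrx1 1458004_at from -0.16 to 0.31, Prrx1 1439774_at from -0.55 to 0.11 and Snai2 1447643_x_at from -0.22 to 0.029. The mean over all probe sets gave Prrx1 0.087, and the probe set of largest variance gave Id4 -0.033, Rcor1 0.011 and Sin3a -0.12. None of the reversed values passed the threshold, and the cause was not tested.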
